A study of Xenopus tropicalis with 24 samples.

Results

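In Xenopus tropicalis embryos treated with a Nodal pathway inhibitor, 3824 regions carried a peak of acetylated histone H3 lysine 27 (H3K27ac) at stage 9. None of the 3824 overlapped an H3K27ac peak of untreated stage 8 or stage 9 embryos, and each of them overlapped an H3K27ac peak of untreated stage 10.5 embryos. They were chosen from the authors' deposited peak lists by these 3 overlaps of at least 1 bp. They made up 23.7% of the 16105 peaks of the Nodal-inhibited H3K27ac list (exact 95% binomial interval 23.1 to 24.4) and belong to a series with 169312 peaks in 17 lists.

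The series profiled whole wild-type embryos around the onset of gastrulation by ChIP-seq, in pools of 250 embryos per immunoprecipitation, and by sequencing of mRNA 3′ ends from 400 ng of mRNA. The inhibited group was stage 9 embryos kept in SB431542 from the 4-cell stage, with 1 library each for H3K27ac, H3K4me1 and mRNA. SB431542 blocks the type I receptors shared by Nodal and activin ligands in every cell, and treated cohorts were checked for loss of the blastopore. The untreated groups were stage 8, stage 9 and stage 10.5 embryos, each with 1 library for H3K27ac, H3K4me1, H3K4me3, H3K27me3, Smad2/3 and mRNA. Each untreated stage also had 1 input library, and none is listed for inhibited embryos. The untreated stage 9 H3K4me1 library is titled as repeated in a named pool. Inhibited embryos of stage 8 or 10.5 were not analysed here. Stage 10.5 acetylation is therefore that of untreated gastrulae, and whether the regions were acetylated in inhibited gastrulae is not known from these lists.

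With 1 library in every group, no difference below has a replicate check or a test. Every interval is a 95% one that covers counting error only. No source used here states the depth of the ChIP libraries. The Nodal-inhibited H3K27ac list held more peaks than the untreated stage 9 list, 16105 against 11314, and the Nodal-inhibited H3K4me1 list held fewer, 17162 against 25975. Absence of a call in a list is not a measured absence of the mark. Per the labels, Bowtie aligned the inhibited libraries, which had no multiplex adapters, and BWA the untreated histone libraries, which had them, so aligner, adapters and treatment cannot be told apart. All 11314 peak names of the untreated stage 9 H3K27ac list carry a stage 8 prefix. That list shared 1 identical interval with the stage 8 list, so it is not a copy of it. Without that list as a condition, 6035 regions would have been chosen.

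Acetylation of H3K27 marks active enhancers and promoters, whereas H3K4me1 alone is found at enhancers that are primed but need not be active, and H3K4me3 marks active promoters. Nodal ligands bind type I and type II receptors, which phosphorylate Smad2 and Smad3. The Smads then enter the nucleus with Smad4 and bind DNA beside partners such as Foxh1. In the Xenopus blastula this pathway sets up mesoderm and endoderm, and cells that receive no Nodal signal take ectodermal fates.

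The comparators are 3 other groups of H3K27ac peaks. There were 5066 peaks of the inhibited list that overlapped no untreated H3K27ac peak of any stage, 6449 peaks shared between the inhibited and untreated stage 9 lists, and 11005 peaks of stage 10.5 that were new since stages 8 and 9 and overlapped no inhibited peak. Seen from the gastrula, 14184 H3K27ac peaks of stage 10.5 had no stage 8 or 9 counterpart, and 3179 of these (22.4%, 21.7 to 23.1) overlapped an inhibited stage 9 peak. Seen from the inhibited list, 43.0% of its 8890 peaks with no stage 8 or 9 counterpart overlapped a stage 10.5 peak and so were members.

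The members covered 7.31 Mb on 883 scaffolds and had a median width of 1568 bp, with the middle 50% between 985 and 2498 bp. Comparator peaks had median widths of 1231 bp (inhibited list alone), 2654 bp (shared with untreated stage 9) and 1959 bp (stage 10.5 gains). The authors' peak scores had a median of 8 in the members, against 8 in peaks of the inhibited list alone and 10 in shared peaks of that list. The members were thus narrower and lower scoring than the peaks shared between the arms. Median GC content was 42.1%, against 42.8, 42.1 and 41.3% in the comparators.

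The overlap conditions left few borderline cases. The nearest untreated stage 8 or 9 peak lay a median of 18896 bp away, and 143 members had one within 1 kb, the closest at 6 bp. In 14 members the overlap with the stage 10.5 peak was 100 bp or less, with a lowest value of 15 bp. Just outside the rule, 38 inhibited peaks shared 100 bp or less with a stage 8 or 9 peak, and 14 had a stage 10.5 peak within 100 bp but not touching. Most members lay well inside the later domain: 2128 (55.6%) were covered whole by stage 10.5 peaks and 3278 (85.7%) over at least 50% of their length. Of the 3643 stage 10.5 peaks under members, 521 (14.3%) also reached an untreated stage 8 or 9 peak, and 605 members (15.8%) lay in such a domain. These members lay where a wide gastrula domain covered both an earlier peak and ground that was called only under inhibition.

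The member with the highest score, 56, lay on scaffold_5265:254-1522, which holds no annotated gene. Next came a 1285 bp region 6.64 kb from nudcd1 with a score of 40 and a 2831 bp region over the start of perp with a score of 36, at scaffold_791:103858-106688. Perp is a component of desmosomes in epithelia. Both carried H3K4me1 in inhibited and untreated stage 9 embryos. The widest member, 13486 bp with a score of 17, lay 12.7 kb upstream of the microRNA gene mir183 at scaffold_11:1022203-1035688, yet the stage 10.5 peak that it overlapped was 1227 bp wide. A region of 11074 bp lay 84.9 kb upstream of foxc2, a forkhead factor of paraxial mesoderm, at scaffold_181:1466770-1477843, and ranked among the 10 highest by score and by width.

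Most of the members were distal. Of the 3824, 695 (18.2%, 16.96 to 19.43) had their centre within 1 kb of an annotated transcription start site (TSS), 637 (16.7%) lay at 1 to 10 kb, 1130 (29.6%) at 10 to 50 kb and 1236 (32.3%) farther off. A further 126 (3.29%) were on scaffolds with no annotated TSS. The median distance was 22.8 kb. By the deposited annotation 2302 (60.2%) were intergenic and 882 (23.1%) intronic. Placement resembled that of peaks shared between the arms more than that of the other comparators: 10.4% of peaks of the inhibited list alone, 18.8% of shared peaks and 7.25% of stage 10.5 gains lay within 1 kb of a TSS. Median distances in these comparators were 37.8, 19.6 and 38.4 kb. The comparators differ in width too, and its part in these shares was not tested.

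**Figure D1:**
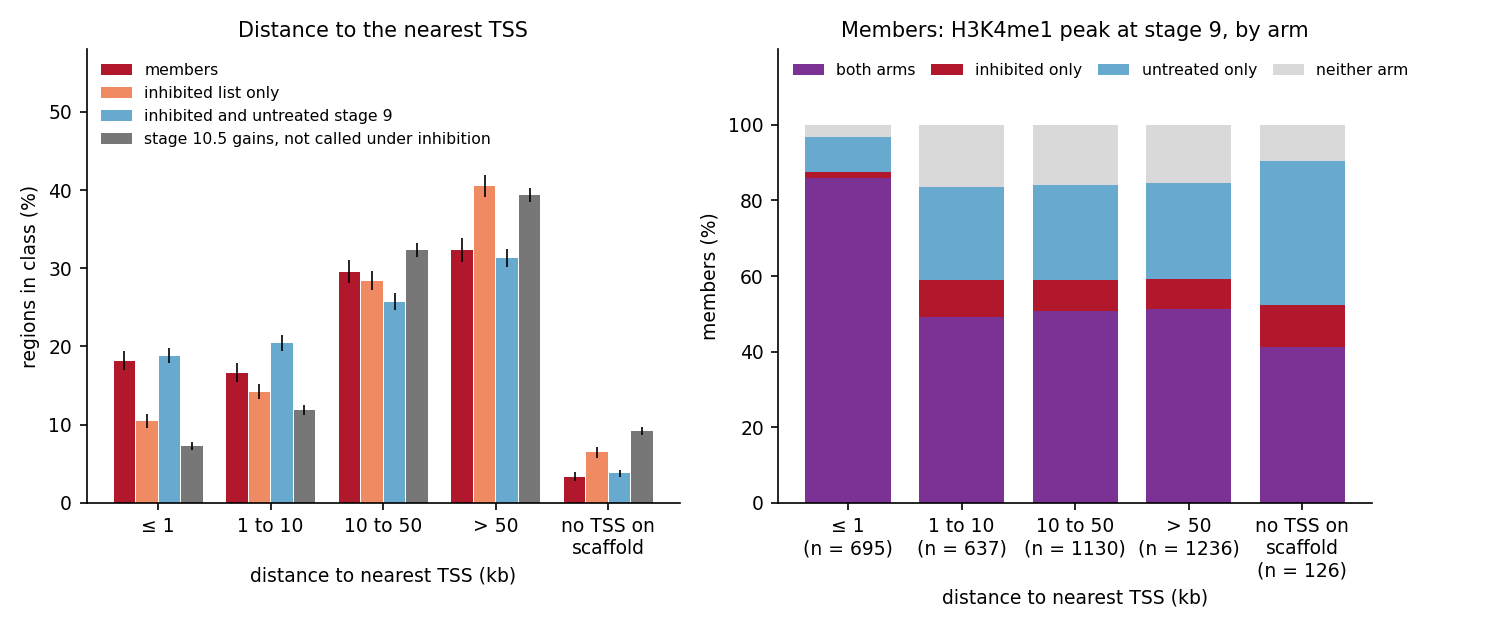
Left, share of regions (%) by distance to the nearest TSS (kb) for members and 3 comparators, with exact 95% binomial intervals. Right, share of members (%) with an H3K4me1 peak at stage 9 in both arms, one arm or neither, by distance class. Within 1 kb of a TSS 86.0% of members had the mark in both arms, against about 50% in each class from 1 kb outward that lay on an annotated scaffold.

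H3K4me1 was called over most members at stage 9 in each arm. The mark overlapped 2449 members (64.0%, 62.5 to 65.6) in inhibited embryos and 3036 (79.4%, 78.1 to 80.7) in untreated stage 9 embryos, which had no H3K27ac call there. Both arms shared 2170 (56.7%), the mark was called only under inhibition over 279 (7.30%), only in untreated embryos over 866 (22.6%), and in neither over 509 (13.3%). The larger untreated share goes with the larger untreated H3K4me1 list given above, and the part of list size was not tested. Median coverage of a member by the mark was 69.8% of its length under inhibition and 78.4% in untreated stage 9 embryos.

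In untreated embryos the mark was called over 570 members (14.9%) at stage 8, 3036 (79.4%) at stage 9 and 3692 (96.5%) at stage 10.5. All 570 members marked at stage 8 were marked at untreated stage 9, and 524 (91.9%) were marked under inhibition. For 2466 members (64.5%) stage 9 was the first untreated stage with H3K4me1, and for 704 (18.4%) it was stage 10.5. Of the 509 members without the mark in either stage 9 arm, 468 (91.9%) had it at stage 10.5. Only 41 members (1.07%) lacked it in all 4 lists.

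Promoter members and distal members differed in these calls. Within 1 kb of a TSS, 598 of 695 (86.0%, 83.2 to 88.5) had H3K4me1 in both arms, against 1520 of 3003 (50.6%, 48.8 to 52.4) farther from a TSS. The comparators had the same order, so it is not particular to the members. Their shares were 69.1 against 32.1% in peaks of the inhibited list alone. In shared peaks they were 97.7 against 87.1%, and in stage 10.5 gains 52.0 against 6.58%. Calls restricted to the inhibited arm made up 11 promoter members (1.58%) and 254 distal members (8.46%). At stage 8 the mark was present over 288 promoter members (41.4%) and 273 distal members (9.09%). Members at or above the median score of 8 were marked more often than those below it, at 70.5% against 55.8% under inhibition and 85.6% against 71.5% in untreated stage 9 embryos.

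**Figure D2:**
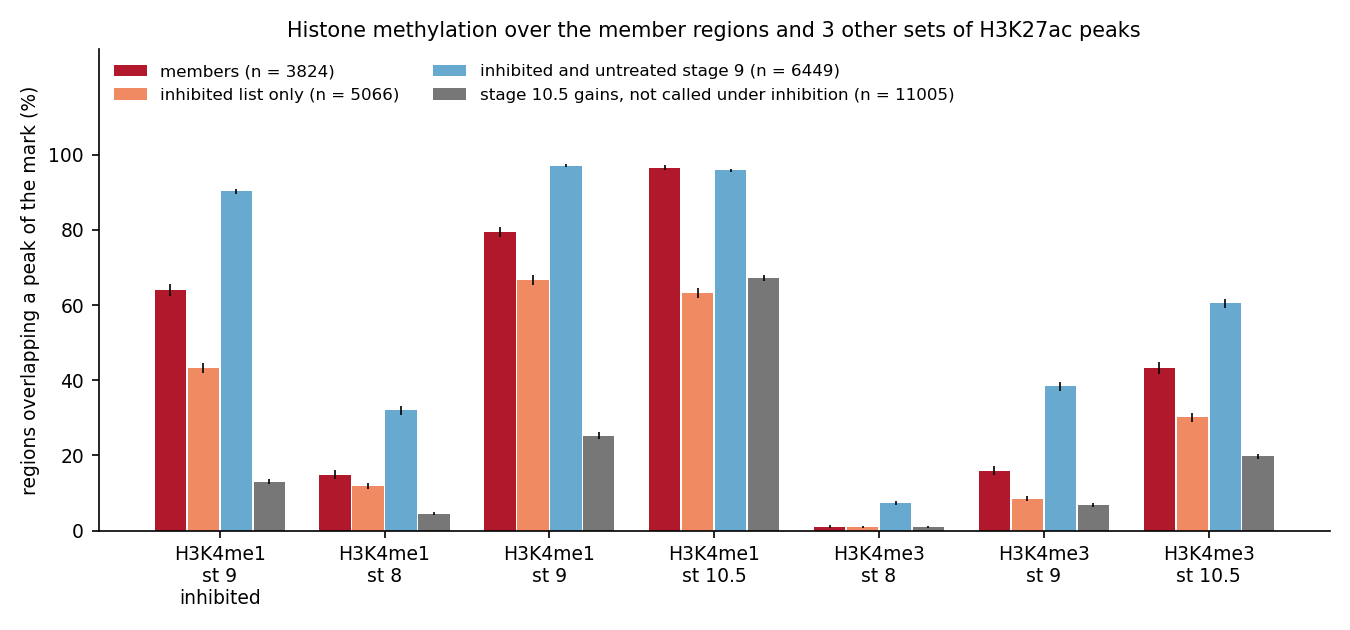
Share of regions (%) overlapping H3K4me1 peaks (inhibited stage 9, then untreated stages 8, 9 and 10.5) and H3K4me3 peaks (untreated stages), with exact 95% binomial intervals. Members are compared with peaks of the inhibited list alone, peaks shared with untreated stage 9, and stage 10.5 gains not called under inhibition. At untreated stage 9, H3K4me1 overlapped 79.4% of members and 25.3% of stage 10.5 gains.

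The members differed from the stage 10.5 gains that the inhibited list lacked. H3K4me1 of inhibited stage 9 embryos overlapped 64.0% of members and 13.0% of those gains, and H3K4me1 of untreated stage 9 embryos overlapped 79.4 and 25.3%. By rule the gains overlapped no H3K27ac peak of either stage 9 arm, whereas each member was a peak of the inhibited stage 9 list. The difference in stage 9 H3K4me1 therefore goes with how the sets were chosen, and no conclusion is drawn from it. The gains had the larger median width. Peaks of the inhibited list alone had H3K4me1 at 43.2% under inhibition and 66.6% in untreated stage 9, and shared peaks at 90.2 and 97.0%. At stage 10.5 the mark overlapped 96.5% of members, 63.2% of peaks of the inhibited list alone, 95.8% of shared peaks and 67.2% of the gains.

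H3K4me3, measured only in untreated embryos, was called over fewer members than H3K4me1 at each stage. It was called over 41 members (1.07%) at stage 8, 607 (15.9%) at stage 9 and 1654 (43.3%) at stage 10.5. Among promoter members the counts were 20 of 695 (2.88%), 316 (45.5%) and 656 (94.4%) at these stages, so for 340 (48.9%) stage 10.5 was the first stage with a call. Among distal members they were 21 of 3003 (0.699%), 279 (9.29%) and 952 (31.7%), and 2047 (68.2%) had no H3K4me3 at any stage. Peaks of the inhibited list alone had the mark at stage 9 in 23.7% of promoter and 6.17% of distal ones. The Polycomb mark H3K27me3 was called over 0, 1 and 6 members at stages 8, 9 and 10.5, from lists of 75, 81 and 179 peaks.

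Smad2/3 sites were sparse. A stage 10.5 site overlapped 39 members (1.02%, 0.726 to 1.39), which held 39 of the 1024 sites of that stage (3.81%, 2.72 to 5.17). The share was 2.27% without the untreated stage 9 H3K27ac list in the rule, an alternative chosen after seeing the data. The midpoint of the site lay in the member for 0.968% of members, and the midpoint of the member lay in a site for 0.262%. The 4 sites of stage 8 and 2 of stage 9 under members are too few for a comparison. Stage 10.5 sites lay in 6 peaks of the inhibited list alone (0.118%), in 457 shared peaks (7.09%) and in 109 stage 10.5 gains (0.990%). Per megabase covered there were 5.33 sites in members, against 0.755, 24.4 and 3.71 in these comparators. The share of members with a site was close to that of the gains not called under inhibition. It was above that of peaks called only under inhibition and below that of peaks acetylated in both arms at stage 9. Of the 1024 sites, 950 (92.8%) lay under a stage 10.5 H3K27ac peak and 684 (66.8%) under an untreated stage 9 one. The sets require or exclude such peaks by rule, so no conclusion is drawn from this order. The Smad2/3 peaks, from untreated embryos, are named as stricter calls in all 3 lists and as pooled ones at stage 9, per the file headers and peak names, and binding under the inhibitor was not measured.

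Of the 39 members with a site, 38 were more than 1 kb from a TSS, and 20 of these were beyond 50 kb. H3K4me1 was called at stage 9 in 25 of the 39 under inhibition (64.1%, 47.2 to 78.8) and in 36 in untreated embryos (92.3%, 79.1 to 98.4), in 0 at stage 8 and in all 39 at stage 10.5. The 0 of 39 allows a share of up to 9.03% by the exact interval. Only 8 carried H3K4me3 at stage 10.5. The highest-scoring site, with a score of 28.9, lay in a member 116 kb upstream of zfp36l2.1, which encodes an mRNA-destabilising zinc finger protein. Sites of scores 25.9 and 25.2 lay in members 26.2 kb upstream of cpa6, a carboxypeptidase gene, and 5.29 kb downstream of the TSS of notch1, the Notch receptor gene.

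Some members with a site lay near signalling genes of the lists. The gene notch1 had 3 members within 50 kb, at scaffold_137:1858871-1859797, scaffold_137:1874903-1877163 and scaffold_137:1919453-1920344, and the first and second of these held a site. All 3 carried H3K4me1 in untreated stage 9 embryos and none did under inhibition. The gene chrd encodes chordin, a BMP antagonist secreted by the organizer. It had 1 member 14.3 kb upstream at scaffold_132:858937-859650 with a site of score 16.5 and H3K4me1 in both arms. A member 69.4 kb upstream of fgf8, a growth factor gene outside the naming rule that was picked after its values were seen, held a site of score 16.7. Tle1, which encodes a Groucho co-repressor, had a member with a site 7.63 kb upstream that lacked H3K4me1 in both arms at stage 9 and gained the call at stage 10.5.

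Several members could lie around 1 gene. A member was linked to its nearest gene within 50 kb, which held for 2462 members (64.4%) and gave 1990 genes, or 24.4% of the 8164 that the peak lists name. Of these 1614 had 1 member, 308 had 2, 48 had 3, 14 had 4 and 6 had 5 or more. The gene with the most was LOC100135364, which the files do not characterise, with 7 members between 1.35 and 26.4 kb upstream. All 7 carried H3K4me1 in untreated stage 9 embryos and 1 did under inhibition.

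Among genes with 4 members, msx1, a homeobox target of BMP signalling, had them at 4.30 kb upstream and 4.66, 10.7 and 15.5 kb downstream of its TSS, on scaffold_441 between 688362 and 711700. In both arms, the promoter itself was already acetylated at stage 9. H3K4me1 was called over all 4 in untreated stage 9 embryos and over 1 under inhibition. The reverse held at tcf7l1, which encodes a repressor of Wnt targets. There 3 of 4 members had H3K4me1 under inhibition and 1 in untreated stage 9 embryos, and 3 of the 4 lay in a single stage 10.5 domain of 39775 bp.

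At ctnnb1, the gene of the Wnt effector beta-catenin, members lay 44.3, 31.5 and 17.8 kb upstream and 40.1 kb downstream. The 3 upstream ones fell in a stage 10.5 domain of 66694 bp that also reached the promoter peak of stage 9. All 4 had H3K4me1 under inhibition and 2 in untreated stage 9 embryos. At epha4, an ephrin receptor gene, the 4 members lay 31.3 and 26.0 kb upstream, in a stage 10.5 domain of 91346 bp, and 35.0 and 39.2 kb downstream, and the one at 35.0 kb held a Smad2/3 site. Thus H3K4me1 did not follow 1 pattern at the 4 loci, and neither arm was the more often marked in all of them.

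**Figure D3:**
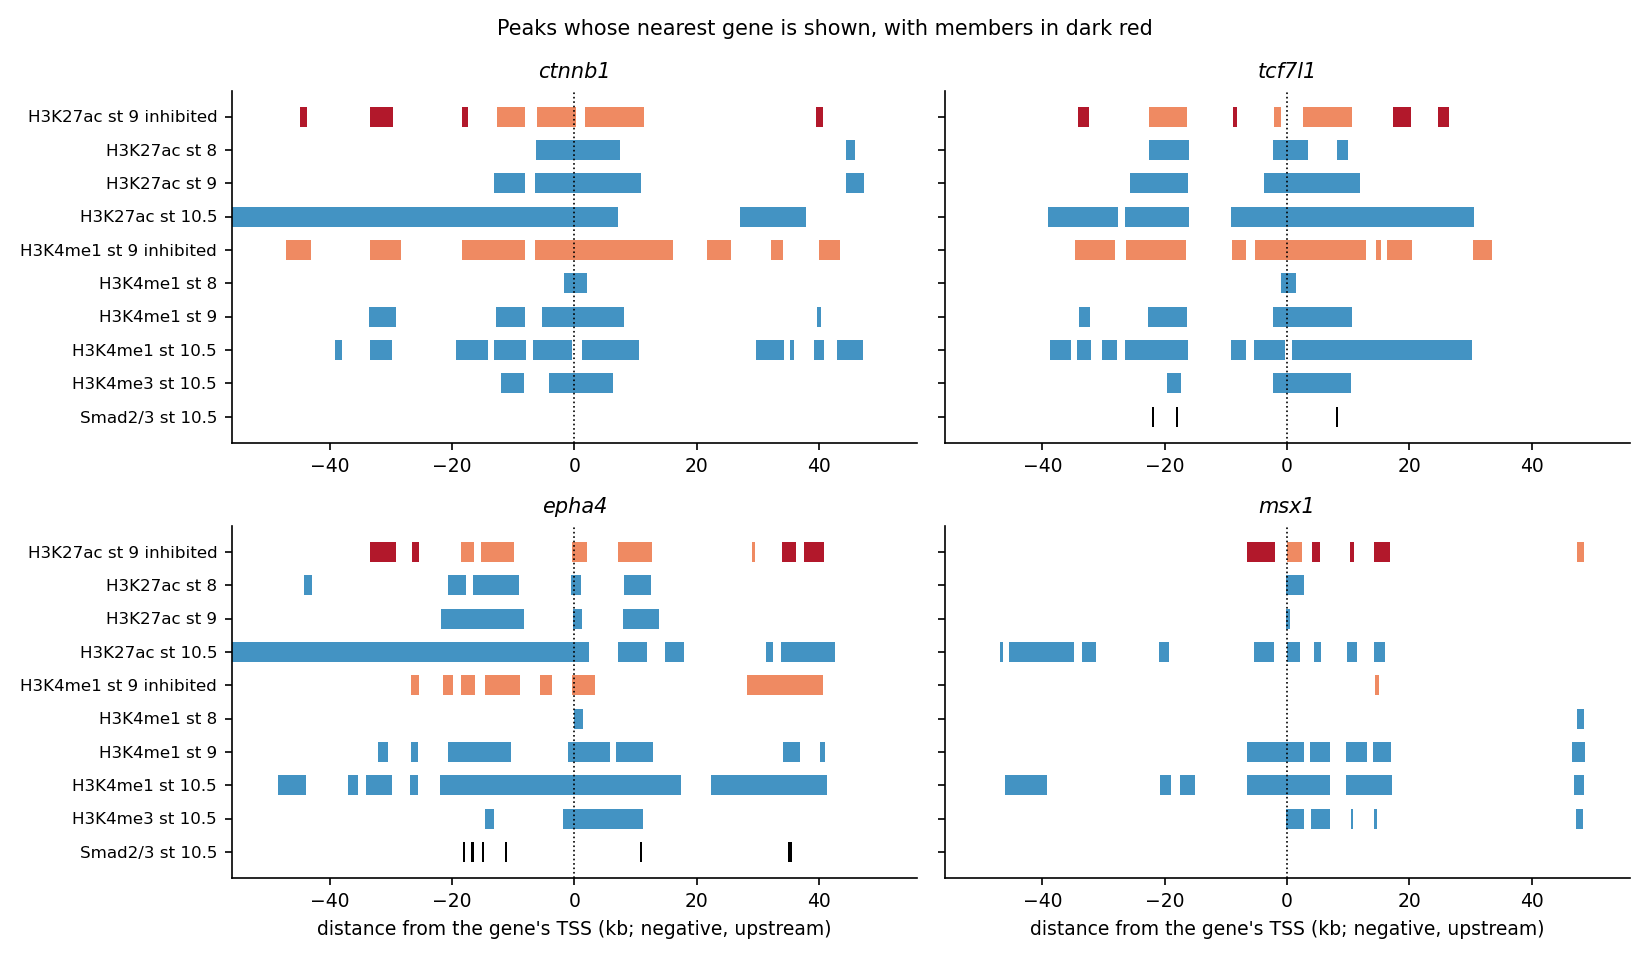
Peaks around 4 genes by distance from the TSS (kb), with 1 row per list and the inhibited H3K27ac list on top. Bars are peak extents, dark red bars are members, orange bars other peaks of inhibited embryos, blue bars untreated peaks and black marks Smad2/3 sites, and wide stage 10.5 domains at ctnnb1 and epha4 run past the left edge. Each gene has 4 members, which flank stage 8 and 9 peaks at the promoter.

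Tags were counted for 1340 of the 1990 genes under a label of their own, and 1290 of these had tags in all 4 libraries. Another 101 genes occurred only in labels that join several genes and were left out. Levels are CPM, the tags of a gene scaled to a library total of 1000000 named tags, from 4656275 named tags in the inhibited library and 4973283, 6659554 and 8030203 at untreated stages 8, 9 and 10.5. The median CPM of the 1340 genes was 39.5 under inhibition, against 51.8, 37.0 and 44.8 at untreated stages 8, 9 and 10.5, and over all 5462 single-gene labels it was 42.1, against 55.9, 39.7 and 47.8. In whole embryos, fewer cells of a type and less RNA per cell cannot be told apart.

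The nearest genes as a group did not stand out between the arms. A gene was counted as higher or lower when its level with 1 CPM added differed by 2-fold or more, provided that the larger of its levels reached 10 CPM. Inhibited over untreated stage 9, 215 of 1067 nearest genes were higher (20.2%), against 20.7% of all 4435 genes tested, and 177 were lower (16.6%), against 16.6% of all. Their median log2 ratio was 0.23, against 0.22 over all genes. With median-of-ratios scaling the median over all genes shifted by -0.20, and 43.0% of the changed nearest genes were higher in place of 54.8%. With TMM scaling 48.1% were higher, and with a minimum of 50 CPM 47.1% were. The direction of the majority thus rests on the scaling and on the CPM minimum.

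Stage 10.5 over untreated stage 9, 353 of 1133 nearest genes were higher (31.2%), against 29.0% of 4637, and 182 were lower (16.1%), against 17.1%. The median log2 ratio was 0.37 in nearest genes and 0.30 in all genes. TMM scaling shifted the latter by -0.29 and left 52.0% of the changed nearest genes higher in place of 66.0%, and median-of-ratios scaling left 50.4%. Stage 10.5 over stage 8, 195 of 1181 were higher (16.5%), against 14.6%, and 283 were lower (24.0%), against 24.6%. These shares lie near the background in each comparison. A gene under 10 CPM at untreated stage 9 could enter a comparison only through the other library, which near 0 CPM fixes its call as higher, so counts over the gene lists are given as descriptions. The stage 9 comparisons share the untreated stage 9 library and are not independent of each other.

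**Figure D4:**
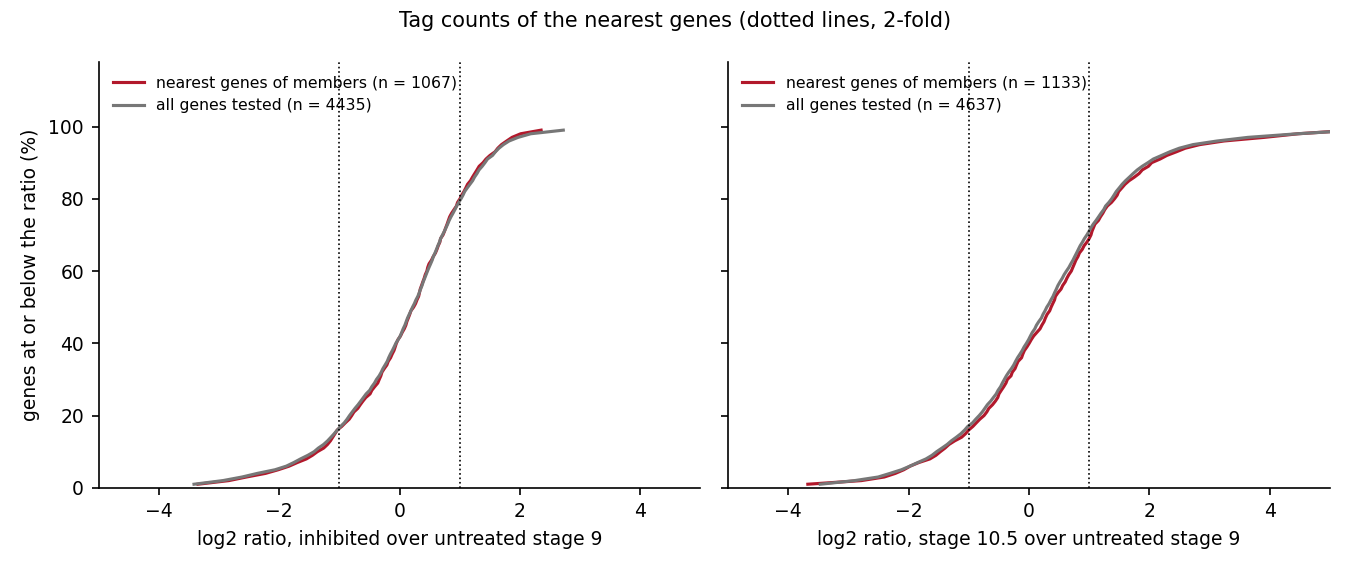
Cumulative share of genes (%) by log2 ratio of tag levels, for nearest genes of members and all genes tested, inhibited over untreated stage 9 (left) and stage 10.5 over untreated stage 9 (right). Dotted lines mark 2-fold. The curves nearly coincide on the left, with medians of 0.23 and 0.22, and lie close on the right, with medians of 0.37 and 0.30.

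Genes with only distal members and genes with a promoter member had different shares at the gastrula, a difference that was not tested. Stage 10.5 over untreated stage 9, 253 of 735 genes with only distal members were higher (34.4%) and 105 lower (14.3%). Among 398 genes with a member within 1 kb of the TSS, 100 were higher (25.1%) and 77 lower (19.3%). Of all genes tested, 29.0% were higher and 17.1% lower. Genes could enter through stage 10.5 alone, which near 0 CPM at untreated stage 9 fixes the call as higher. The part of such entry in the difference was not tested. Inhibited over untreated stage 9, the shares were 19.1% higher and 16.9% lower for 679 genes with only distal members. They were 21.9% higher and 16.0% lower for 388 genes with a promoter member, and 20.7 and 16.6% over all genes tested. Of the 68 genes with 3 or more members, 36 could be compared at stage 10.5. Of these 17 were higher (47.2%) and 6 lower (16.7%), against 29.0 and 17.1% of all genes tested. Under inhibition 28 could be compared, of which 10 were higher and 7 lower. The 44 of the 68 genes with a label of their own had a median of 11.04 CPM at untreated stage 9. Over all single-gene labels the median was 39.7 CPM. The 68 genes thus lay near the 10 CPM minimum, where entry through the other library alone may weigh more. Its part in their shares was not tested, and no conclusion is drawn from them.

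Of 12 BMP pathway genes in the peak lists, bmp2, bmp4, id3 and msx1 had a member. Under inhibition 2 of the 3 with tags were 2-fold higher, id3 and bmp4, where 20.7% of all genes tested were higher, and both were under 10 CPM at untreated stage 9. Id3, a dominant-negative inhibitor of DNA binding and a known BMP target, had 113 CPM under inhibition, against 26.1, 9.91 and 2676 CPM at untreated stages 8, 9 and 10.5. Its inhibited level was 11.4-fold that of untreated stage 9 (8.83 to 15.0). The member, 9.08 kb downstream of the TSS at scaffold_106:2569654-2570053, was 400 bp wide inside a stage 10.5 domain of 71738 bp.

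Bmp4, a ventral ligand gene with 1 member 42.7 kb upstream, had 21.3 CPM under inhibition, against 0.402, 4.36 and 139 CPM at untreated stages 8, 9 and 10.5, and was 4.88-fold higher than untreated stage 9 (3.2 to 7.7). Bmp2 differed less, at 132 CPM under inhibition, against 179, 87.7 and 77.5 CPM. No tags carried the label msx1. Of the 3 genes counted, id3 and bmp4 were also 2-fold higher at stage 10.5 than at untreated stage 9. Of all genes tested, 29.0% were. In that comparison id3 and bmp4 reached the minimum only through stage 10.5. In the inhibited library id3 and bmp4 thus lay between untreated stages 9 and 10.5.

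Klf17, a Kruppel-like factor of the early zygotic embryo, had 91.3 CPM under inhibition, against 7.64, 8.71 and 241 CPM at untreated stages 8, 9 and 10.5, a 10.5-fold difference from untreated stage 9 (7.95 to 14.0). Its 2 members within 50 kb lay 24.9 and 27.8 kb upstream, in 1 stage 10.5 domain of 19550 bp, and another lay 86.6 kb upstream. None of them had H3K4me1 under inhibition. Among the 14 pluripotency and early zygotic factors in the peak lists, 7 had a member: klf2, klf4, klf17, lin28b, mycn, sall1 and sall4. Of the 6 with enough tags, klf17 was the 1 past 2-fold under inhibition, where 20.7% of all genes tested were higher and 16.6% lower. Klf17 reached the minimum only through the inhibited library. Stage 10.5 over untreated stage 9, klf17, sall1 and sall4 were higher, and klf2 and mycn lower, where 29.0 and 17.1% of all genes tested were. In that comparison klf17 reached the minimum only through stage 10.5.

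Among Wnt and FGF genes, 7 of 23 had a member, namely ctnnb1, fgfr4, fzd7, fzd10, sp5, tcf7l1 and wnt11. Ctnnb1 had 699.9 CPM under inhibition, against 837, 225 and 1516 CPM at untreated stages 8, 9 and 10.5, and was 3.11-fold above untreated stage 9 (2.92 to 3.31). Its lowest level was in the untreated stage 9 library. Wnt11, a ligand gene of the non-canonical pathway, had 26.0 CPM under inhibition, against 12.5, 5.71 and 33.1 CPM, and was 4.55-fold above untreated stage 9 (3.14 to 6.74). The receptor gene fzd7 had 31.6 CPM under inhibition, against 22.9, 20.3 and 142 CPM. Under inhibition 2 of 5 genes of this list with enough tags were higher and none lower, where 20.7% of all genes tested were higher. Of the 2, wnt11 reached the minimum only through the inhibited library. Stage 10.5 over untreated stage 9, 6 of 6 were higher, where 29.0% of all genes tested were, but fzd10 (17.8 CPM at stage 10.5, against 0 CPM at untreated stage 9) and wnt11 reached the minimum only through stage 10.5.

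Of 12 Notch, Eph and related signalling genes, notch1, epha4 and hes4 had a member. Hes4, a transcriptional repressor of the Hes family, had 22.3 CPM under inhibition, against 4.62, 7.21 and 101 CPM at untreated stages 8, 9 and 10.5, a 3.1-fold difference from untreated stage 9 (2.2 to 4.5). Epha4 had 3.87 CPM under inhibition, against 4.22, 4.36 and 18.9 CPM, and was too low under inhibition to be counted. Notch1 had no tags under its own label.

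Ectodermal and neural genes made up the longest of the member lists, with 12 of 26 (46.2%, 26.6 to 66.6). Of all genes named in the peak lists, 24.4% had a member within 50 kb. The gene lists were chosen with earlier results of these data known, so no conclusion is drawn from this share. The 12 were dlx3, fezf2, gmnn, grhl2, hes4, irx2, irx3, krt18, lhx5, sox3, sox11 and zic2. Of 6 with enough tags, 1 was 2-fold higher under inhibition (hes4) and 1 lower, where 20.7 and 16.6% of all genes tested were. Hes4 reached the minimum only through the inhibited library. The lower one was krt18, a simple-epithelial keratin gene, with 1592 CPM under inhibition, against 2076, 5682 and 1446 CPM at untreated stages 8, 9 and 10.5. Gmnn, the gene of the replication inhibitor geminin, had 3337 CPM under inhibition, against 1176, 1897 and 1650 CPM, and was short of 2-fold. Sox3, a neural SRY-box factor, had 993 CPM under inhibition, against 1805, 718 and 1320 CPM. Stage 10.5 over untreated stage 9, 5 of 9 were higher and 1 lower, where 29.0 and 17.1% of all genes tested were. Of the 5, hes4, irx2, irx3 and lhx5 reached the minimum only through stage 10.5. Among the higher ones irx2 had 96.1 CPM at stage 10.5, against 0.300 CPM at untreated stage 9.

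A member lay near 1 of 6 Nodal ligand and antagonist genes (16.7%, 0.421 to 64.1), lefty, 4.21 kb downstream of the TSS with H3K4me1 in neither arm, and near 2 of 8 transduction genes (interval 3.19 to 65.1%), smad2 and smad3. Both intervals include the 24.4% of all genes named in the peak lists. Smad2 had 483 CPM under inhibition, against 961, 1179 and 253 CPM at untreated stages 8, 9 and 10.5, a ratio of 0.409 to untreated stage 9 (0.391 to 0.429). Of 12 endoderm and mesendoderm factors gata5 had a member (8.33%, 0.211 to 38.5). Of 17 mesoderm factors cdx2, cdx4, foxc2 and snai2 had one (23.5%, 6.81 to 49.9). Of 16 organizer genes chrd, irx3 and lhx1 had one (18.8%, 4.05 to 45.6). The intervals of these lists also include 24.4%.

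None of these germ layer genes had enough tags in either stage 9 arm to be counted between the arms. Cdx2, a posterior homeobox factor, had 0.644 CPM under inhibition, against 0.201, 0.300 and 180 CPM at untreated stages 8, 9 and 10.5. Chrd had 1.29 CPM under inhibition, against 0, 0.451 and 58.8 CPM, and lhx1, a LIM homeobox factor of the organizer, had no tags under inhibition, against 0, 0.150 and 44.8 CPM. The regions near these 3 genes thus had an H3K27ac call in inhibited stage 9 embryos while the tags of the genes were at or near 0 there. At stage 10.5 the genes of these lists that reached the minimum did so through that stage alone, and no count is drawn from them.

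**Figure D5:**
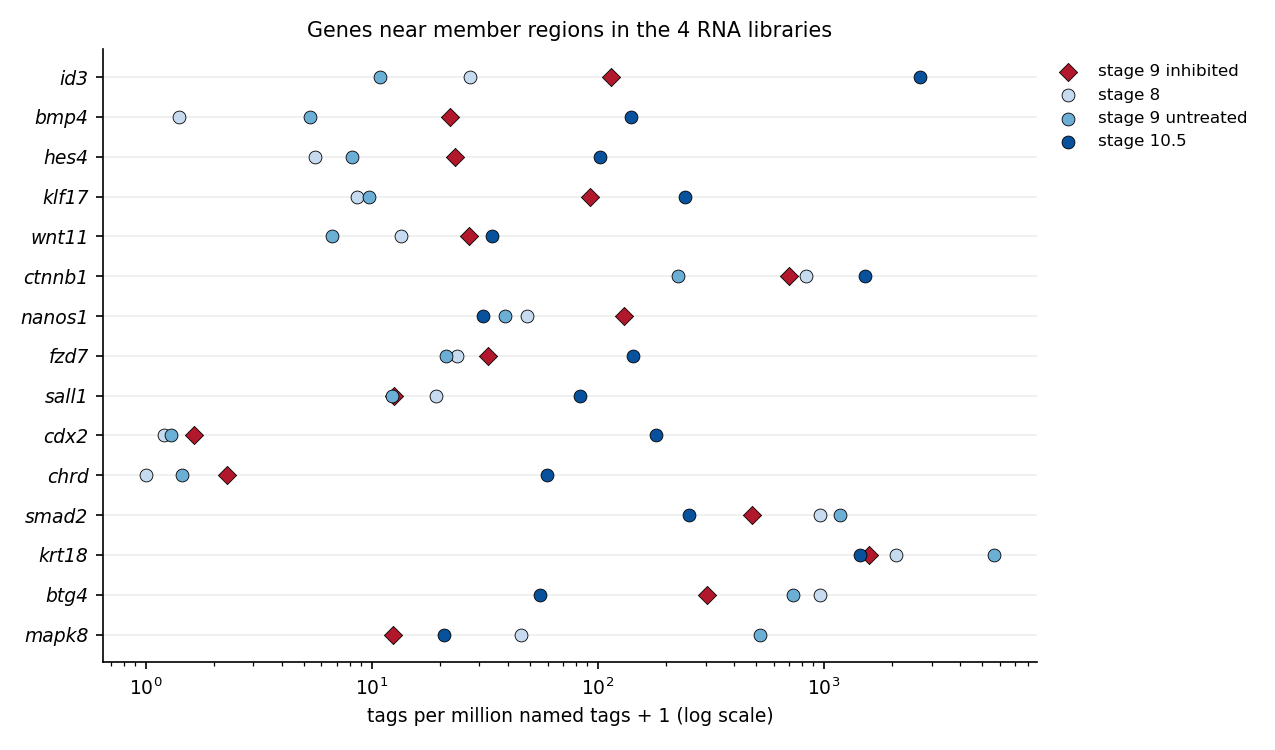
Levels of 15 genes near members in the 4 RNA libraries, as CPM plus 1 on a log axis. Red diamonds are inhibited stage 9 embryos, and circles from light to dark blue are untreated stages 8, 9 and 10.5. Id3 and klf17 lie between untreated stages 9 and 10.5 under inhibition, and cdx2 and chrd are near 0 in both stage 9 libraries.

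The other lists gave few counts. Of 14 retinoic acid and homeobox genes, 7 had a member, among them cdx4, cyp26a1, pbx2, rara and rarg, none of 2 counted was past 2-fold under inhibition, and 3 of 4 were higher at stage 10.5 than at untreated stage 9. Of 10 maternal and germ plasm genes 4 had one (btg4, ddx4, nanos1 and zar1). Nanos1, a translational repressor of the germ line, had 130 CPM under inhibition, against 47.9, 37.8 and 30.0 CPM at untreated stages 8, 9 and 10.5, and btg4, a maternal regulator of mRNA decay, 303 CPM, against 958, 729 and 54.5 CPM. These were the 1 higher and the 1 lower of 4 counted. Cell cycle and chromatin genes had 2 of 18 (cdk1 and orc1) and markers of later cell types 2 of 9 (actc1 and tnnt3), and the last pair had no tags under a label of their own. Together 56 of 179 listed genes had a member within 50 kb (31.3%, 24.6 to 38.6), against 24.4% of all genes named in the peak lists.

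The largest differences among the nearest genes went both ways. Above untreated stage 9, besides id3 and klf17, stood gsta4, a glutathione transferase gene, with 105 CPM under inhibition, against 40.0, 2.85 and 10.8 CPM at untreated stages 8, 9 and 10.5. Esrrg, a nuclear receptor gene, had 27.1 CPM under inhibition, against 18.1, 0 and 0 CPM. Its ratio to untreated stage 9 was 60.1-fold with a floor of 3 tags in place of 0. The interval was computed from the 0 tags without that floor, began at 48.1 and had no upper limit. Nrg3, a neuregulin gene, had 14.2 CPM under inhibition, against 0, 0.150 and 2.61 CPM.

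Below untreated stage 9 stood mapk8, n6amt2, rps15a, arl2 and st6galnac4, each with a member within 1 kb of its TSS. Mapk8, the gene of a JNK kinase, had 11.4 CPM under inhibition, against 44.8, 521 and 19.8 CPM at untreated stages 8, 9 and 10.5, a ratio of 0.0219 to untreated stage 9 (0.0163 to 0.0286). Rps15a, a ribosomal protein gene, had 187 CPM under inhibition, against 1129, 3163 and 577 CPM. In all 5 the untreated stage 9 level was the highest of the 4 libraries, and untreated stage 9 is the lone denominator.

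At stage 10.5 the highest ratios to untreated stage 9 belonged to id3, cdx2, pnhd, osr1 and atp12a, each at under 10 CPM at untreated stage 9. Pnhd, a secreted factor gene, had 1.07 CPM under inhibition, against 0, 0.451 and 217 CPM at untreated stages 8, 9 and 10.5, and osr1, a zinc finger factor of intermediate mesoderm, 3.44 CPM, against 0, 0 and 102 CPM. Among the lowest were mapk8, n6amt2, st6galnac4 and esrp1. Esrp1, an epithelial splicing regulator, had 55.2 CPM under inhibition, against 75.2, 397 and 15.8 CPM.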

How the data were processed

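The authors deposited 17 peak lists, made with MACS2 and annotated with HOMER, per the submitters' processing notes. Coordinates are on scaffolds of xenTro2, 1-based. In each list the authors gave a peak score, the GC content as a fraction, the nearest gene and how far its TSS lies, per the file headers. Scores were used within a list only. The RNA table holds raw counts of 3′ tags per region, which the authors called with a region threshold of 25 and a hit threshold of 90 and counted without regard to strand, per the file headers. Antisense partners therefore cannot be told apart. Counts were summed per gene label, and the 29.1 to 32.6% of tags without a gene were left out. A further 4 per-sample columns belong to none of the listed samples and stayed out. Alignment dates differ between RNA libraries, per the file headers.

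Overlaps, exact binomial (Clopper-Pearson) intervals for shares and conditional binomial intervals for folds were computed with Python 3.11.15, numpy 2.4.6, pandas 2.3.3 and SciPy 1.17.1. TMM factors came from edgeR 4.0.16. Overlap and fold code was tested on simulated data. Alternatives changed the overlap rule, score minimum, distances, scaling, pseudocount and CPM minimum, and the closing part gives their effect. Genes named are those nearest the 10 members highest in score, in width and in Smad2/3 score, genes of 14 lists with a member within 50 kb, up to 10 genes with 3 or more members and the 5 largest differences each way. The text prints a part of these, and some items are not reported here. Members, comparators and lists were chosen with earlier results of these data known. No sequence of this build was used here, so none is shown.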

Additional observations from a re-analysis of the deposited data

How the results depend on the processing

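The number of regions changed from 3824 to 2144 when only inhibited peaks at or above their median score counted. Without the untreated stage 9 H3K27ac list it was 6035, an alternative chosen after seeing the data. Under the other 4 alternatives it was between 3681 and 4241. The share near a TSS was 13.7% within 0.5 kb and 21.2% within 2 kb. H3K4me1 under inhibition and in untreated stage 9 embryos overlapped 68.5 and 81.6% of regions when 50% of the peak's length had to be shared. With the score minimum the shares were 70.5 and 85.6%, and with the member's midpoint inside the mark they were 58.7 and 71.3%. They were 71.8 and 84.9% without the untreated stage 9 list, and 66.6 and 81.2% without the stage 8 list, also chosen after seeing the data. The untreated share was the larger in all of these. The share with a Smad2/3 site was 1.45% with 50% of the length shared and 2.27% without the untreated stage 9 list. With the site's midpoint inside the member it was 0.968%.

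With a minimum of 50 CPM, 122 nearest genes were higher inhibited over untreated stage 9 and 213 stage 10.5 over untreated stage 9. These were 47.1 and 60.9% of the changed nearest genes, in place of 54.8 and 66.0%. With the nearest gene within 10 kb, 142 were higher and 115 lower under inhibition, and 207 were higher at stage 10.5. Fewer genes enter under both alternatives. Scaling and pseudocount alternatives kept each count within 1.5 times, and no named gene past 2-fold turned direction. Of the log2 ratios of named genes under these alternatives, 311 stayed within the gene's counting interval and 173 fell outside it. The fold intervals therefore do not cover the choice of scaling or pseudocount. No paired analysis was possible because each group has 1 library. The unknown ChIP depth limits every absence of a call, and single libraries limit every difference.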
